A study of Mus musculus with 165 samples.

Results

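The disease-associated microglia genes described here are 9 genes, Trem2, Tyrobp, Clec7a, Itgax, Axl, Cst7, Apoe, Lpl and Spp1, out of 55471 genes counted in brain and liver. They were chosen by name, as rows whose Ensembl identifier carries one of these symbols, and all 9 were found once in each count table and passed the filter on low counts in both tissues. The libraries were bulk, strand-preserving polyA RNA sequencing of male C57BL/6J/Ukj mice, an inbred laboratory line, with no treatment or transgene named in the labels. Brain libraries came from 15 mice at 3 months of age, 16 at 9 months, 16 at 15 months, 17 at 24 months and 18 at 28 months. Liver libraries came from 16, 16, 16, 17 and 18 mice at the same ages, and 82 mice gave both tissues. Each library belonged to 1 of 3 preparations, called preps here, and every prep held all 5 ages, with 4 to 7 libraries per age in each tissue.

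Microglia are the resident macrophages of the brain. In mouse models of Alzheimer's disease, and in smaller numbers in aged and white-matter-injured brain, part of them take on a state called disease-associated microglia, in which genes of phagocytosis, lysosomes and lipid handling rise and many homeostatic microglia genes fall. TREM2, a surface receptor for lipids and lipoproteins, signals through the adapter TYROBP to the kinase SYK, and in those models a late step of the state, with Clec7a, Itgax, Cst7, Lpl, Axl and Spp1 among its genes, depends on TREM2. Apoe and Tyrobp belong to an earlier step that does not. Several of the same genes are also used outside microglia: Apoe and Axl by astrocytes, Lpl by neurons, Spp1 by cells of the meninges, and all of them by macrophages or other cells of the liver. In whole-tissue RNA a change in the number of cells of a type and a change in RNA per cell cannot be told apart.

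Total counts per library ran from 11460609 to 73390216 in brain and from 5823039 to 57490197 in liver. Tissue markers matched the labels: Snap25, a synaptic protein of neurons, was at 966 to 2769 CPM (read counts scaled by library size) in brain and 0 to 40.4 in liver, and Clec4f, a marker of the Kupffer cells of the liver, was at most 0.093 CPM in any brain. Alb, the albumin gene of hepatocytes, was at 14018 CPM or more in liver and at 0 to 0.54 CPM in brains up to 24 months, but reached 18.5 CPM in brain of 28-month mouse 5, where the median of the age was 0.040. Tmem119, a microglia marker, was at 19.8 to 57.0 CPM in brain. A pair of brain libraries stood apart: the median correlation of log2 CPM with the other brains was 0.852 for 28-month mouse 15, the shallowest brain library, and 0.941 for 24-month mouse 13, against 0.975 for the next lowest and a median of 0.990. Results that rest on these 2 brains are given with and without them, an alternative chosen after the data had been seen. In liver the lowest median correlations were 0.915, 0.922 and 0.934, against a median of 0.978. Liver results are given with all livers unless a mouse left out is named.

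The promoters of 7 of the 9 genes were matched in RefSeq (GRCm38.p6). The 250 bases before the start are shown for 3 genes whose changes are described below and whose window holds the core of an ETS factor site (GGAAGT, the family of the microglial regulator PU.1) or of an AP-1 site (TGANTCA), each searched on both strands and written in capitals (ACTTCC is GGAAGT on the opposite strand).
Cst7, chr2:150570165-150570414, plus strand: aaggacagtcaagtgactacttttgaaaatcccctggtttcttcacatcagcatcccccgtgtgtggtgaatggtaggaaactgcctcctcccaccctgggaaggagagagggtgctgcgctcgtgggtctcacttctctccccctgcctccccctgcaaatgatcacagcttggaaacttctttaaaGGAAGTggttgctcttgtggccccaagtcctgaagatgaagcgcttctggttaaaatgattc
Itgax, chr7:128129300-128129549, plus strand: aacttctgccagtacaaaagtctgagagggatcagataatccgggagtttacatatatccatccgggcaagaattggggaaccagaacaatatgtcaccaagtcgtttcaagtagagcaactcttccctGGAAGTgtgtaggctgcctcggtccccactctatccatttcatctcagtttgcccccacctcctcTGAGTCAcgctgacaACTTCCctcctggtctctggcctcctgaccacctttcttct
Trem2, chr17:48346151-48346400, plus strand: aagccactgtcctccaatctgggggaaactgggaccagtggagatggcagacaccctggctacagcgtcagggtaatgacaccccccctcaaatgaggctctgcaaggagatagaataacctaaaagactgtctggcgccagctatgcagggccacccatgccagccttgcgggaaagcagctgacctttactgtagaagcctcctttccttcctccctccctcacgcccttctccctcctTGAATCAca
GGAAGT began 62 bases before the start of Cst7, and in Itgax it lay at 121 and, on the opposite strand, at 41 bases before the start, on either side of a TGANTCA match at 56. Trem2 held no GGAAGT in this window and had TGANTCA 9 bases before its start. Among 32817 mouse promoter windows of the same length, 19.7% held GGAAGT and 6.75% held TGANTCA, so these matches are descriptions of sequence and not of factor binding, which was not measured. The other matched promoters were those of Clec7a, Spp1, Apoe and Axl. GGAAGT was also present 111 bases before one start of Spp1, and neither motif was found in the windows of Clec7a, Apoe or Axl.

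Of the 9 genes, 6 were higher in brain at 24 than at 3 months and 7 at 28 than at 3 months, while none had passed the test at 9 or 15 months. Clec7a, Cst7 and Itgax rose most, by 5.18-, 5.41- and 3.06-fold at 28 months. Trem2 and Tyrobp rose about 1.5-fold, Apoe and Axl less, and Lpl and Spp1 did not pass edgeR's test, though voom with quality weights called all 9, with Lpl lower. The share of all genes that voom called is not given here, so its count has no background. The edgeR calls used its quasi-likelihood test over 18711 genes with age and prep as terms, and a gene was called at a Benjamini-Hochberg adjusted p under 0.05. In the same comparison of 28 with 3 months, 28.3% of all genes tested were called, with 16.3% of all genes higher, and 10.1% were called at 24 months, with 6.19% higher. The median log2 fold change of the 9 genes was 0.58 at 28 months and 0.52 at 24 months, and that of all genes was 0.01 in both comparisons. Without the 2 brains that stood apart the medians of the 9 genes were 0.49 and 0.42, where 34.1% and 17.1% of all genes were called.

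**Figure D1:**
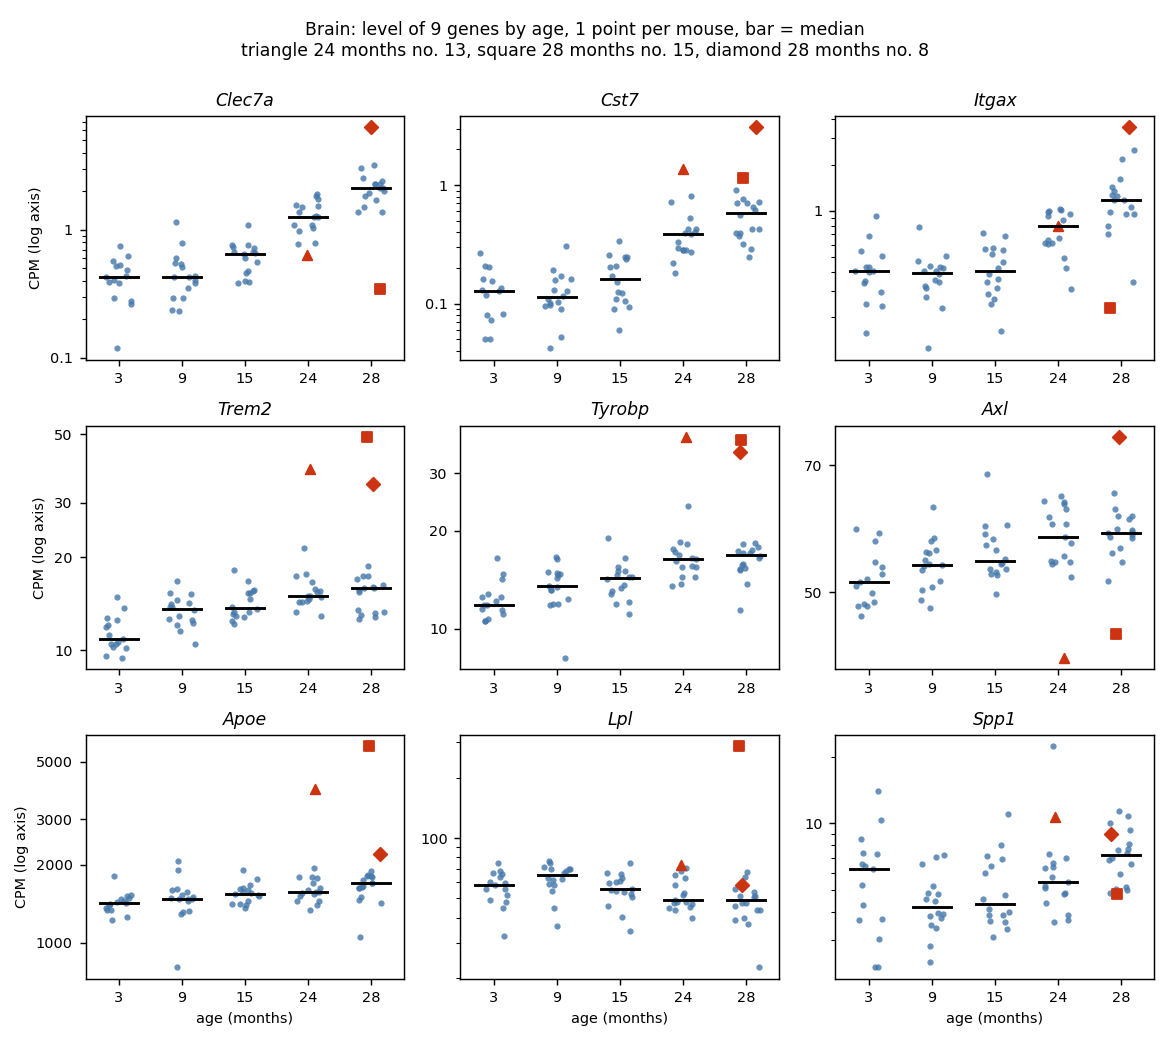
Level of the 9 genes in brain, in CPM on a logarithmic axis, against age in months; each point is 1 mouse and the bar is the median of the age. Marked are 24-month mouse 13 (triangle), 28-month mouse 15 (square) and 28-month mouse 8 (diamond); 1 Cst7 value of 0 at 3 months cannot be drawn. Clec7a climbs from a median of 0.43 to 2.11 CPM, while Axl stays between 42.0 and 75.5 CPM in every brain.

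Trem2 (chr17:48346401-48354147, plus strand, GRCm38), the gene of the lipid-sensing receptor, was at 9.44 CPM in the lowest, 10.9 in the median and 14.8 in the highest brain at 3 months. At 9 and 15 months its median was 13.6 and 13.7 CPM, at 24 months 15.0 (range 12.9 to 38.6) and at 28 months 15.9 (range 12.6 to 48.9). The highest values belonged to the brains that stood apart, 24-month mouse 13 and 28-month mouse 15, followed by 28-month mouse 8 at 34.6 CPM. Of 18 brains at 28 months, 12 lay above the highest brain at 3 months, and the groups overlapped. Trem2 rose by 0.55 ± 0.12 (log2, SE) at 24 months (edgeR adjusted p = 0.000749) and by 0.66 ± 0.12 at 28 months (adjusted p = 1.12e-05). No step between neighbouring ages passed the test, and the medians followed the order of age. Without the 2 brains the rise to 28 months was 0.52 ± 0.08.

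Tyrobp (chr7:30413760-30417585, plus strand), which encodes the signalling adapter of TREM2, followed the same course. It ran from 10.5 through a median of 11.8 to 16.5 CPM at 3 months and from 11.4 through 16.9 to 37.9 CPM at 28 months, with medians of 13.5, 14.3 and 16.4 CPM between. The low 28-month value came from mouse 7 and the high one from mouse 15, and 11 of 18 brains at 28 months exceeded every brain at 3 months. Its rise was 0.52 ± 0.11 (log2, SE) at 24 months and 0.58 ± 0.11 at 28 months (edgeR adjusted p = 0.000443 and 1.95e-05), and 0.49 ± 0.08 at 28 months without the 2 brains. No step between neighbouring ages passed with all brains, and that from 15 to 24 months passed without 28-month mouse 15 (0.34, adjusted p = 0.0422) but not without the 2 brains (adjusted p = 0.155). Per kilobase of exon, Tyrobp was at 18.5 and Trem2 at 2.30 CPM on average at 3 months, and at 27.6 and 3.68 CPM at 28 months. The lengths used are unions of all annotated exons, 667 bases for Tyrobp and 4946 for Trem2. Before that division the 3-month means were 12.3 and 11.4 CPM, so the gap comes from the lengths and is not a measure of transcript number.

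Clec7a (chr6:129461591-129472779, minus strand) encodes Dectin-1, a C-type lectin receptor with its own SYK-coupled signalling. At 3 months it was at 0.12 to 0.74 CPM with a median of 0.43, from 4 to 39 counts per library. The median was also 0.43 CPM at 9 months and 0.65 at 15 months, then 1.26 (range 0.64 to 1.91) at 24 months and 2.11 (range 0.34 to 6.30) at 28 months. At 28 months 17 of 18 brains exceeded the highest brain at 3 months. The exception was mouse 15, which had 3 Clec7a counts, and the highest was mouse 8. Its rise from 3 months was 1.55 ± 0.20 (log2, SE) at 24 months (edgeR adjusted p = 6.01e-09) and 2.37 ± 0.19 at 28 months (adjusted p = 1.09e-16). With all brains it was the only one of the 9 genes with both late steps past the test, 1.05 ± 0.19 from 15 to 24 months (adjusted p = 0.000646) and 0.83 ± 0.17 from 24 to 28 months (adjusted p = 0.00413). Its ages therefore ordered as 3, 9 and 15 months without a called step, then 24, then 28 months. The annotation lists Clec7a as a polymorphic pseudogene, a class for genes that are intact in some mouse strains.

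Itgax (chr7:128129547-128150657, plus strand) encodes the integrin subunit CD11c. It stayed at a median of 0.40 CPM at 3 months (range 0.16 to 0.92), 0.39 at 9 months and 0.40 at 15 months. It then stood at 0.79 CPM (range 0.31 to 1.04) at 24 months and 1.18 CPM (range 0.23 to 3.53) at 28 months, and mouse 8 was again the highest and mouse 15 the lowest. The rise was 0.80 ± 0.22 (log2, SE) at 24 months, with 6 of 17 brains above every 3-month brain, and 1.61 ± 0.21 at 28 months, with 14 of 18 above (edgeR adjusted p = 0.00891 and 7.45e-09). From 24 to 28 months it rose by 0.81 ± 0.20 (adjusted p = 0.0225). That step missed the threshold without mouse 8 (0.65, adjusted p = 0.0557) or without 28-month mouse 7 (adjusted p = 0.0503), and was 0.86 without the 2 brains that stood apart. The step from 15 to 24 months, 0.80, missed the threshold (adjusted p = 0.0539) and passed it without the 2 brains (adjusted p = 0.0422). Over all genes 0.732% were called in that step with all brains and 1.23% without the 2 brains.

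Axl (chr7:25757273-25788705, minus strand), a receptor tyrosine kinase that binds GAS6 and PROS1 on dying cells, changed least among the genes called. It was at 46.9, 51.4 and 59.2 CPM (lowest, median, highest) at 3 months and at 44.8, 58.6 and 75.5 CPM at 28 months, with medians of 53.8, 54.3 and 57.9 CPM between. The brains that stood apart were the lowest of their ages, at 42.0 CPM in 24-month mouse 13 and 44.8 CPM in 28-month mouse 15, and mouse 8 was the highest. Axl rose by 0.15 ± 0.05 (log2, SE) at 24 months and 0.18 ± 0.05 at 28 months (edgeR adjusted p = 0.0235 and 0.00184), a 1.13-fold change at 28 months, with no called step between neighbouring ages.

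Cst7 (chr2:150570415-150578944, plus strand) encodes cystatin F, an inhibitor of lysosomal cysteine proteases. It had the fewest counts of the 9 genes, at 0 to 0.27 CPM with a median of 0.13 at 3 months, where 6 of 15 brains had 3 counts or fewer. The median was 0.11 CPM at 9 months and 0.16 at 15 months, then 0.39 (range 0.18 to 1.38) at 24 months and 0.58 (range 0.25 to 3.07) at 28 months. At 24 months 15 of 17 brains and at 28 months 17 of 18 lay above the highest 3-month brain. The rise was 1.77 ± 0.29 (log2, SE) at 24 months and 2.44 ± 0.28 at 28 months (edgeR adjusted p = 5.1e-06 and 1.03e-10), which placed Cst7 20th and Clec7a 28th among 18711 genes ordered by their rise. The step from 15 to 24 months was 1.34 ± 0.28 (adjusted p = 0.00392). The step to 28 months, 0.67, did not pass (adjusted p = 0.156) with all brains, but passed without 24-month mouse 13 alone (0.81, adjusted p = 0.0377) and without the 2 brains (0.77, adjusted p = 0.0415). In that step 1.09% of all genes were called with all brains and 3.58% without the 2 brains. Mouse 8, at 3.07 CPM, was more than 2 times the next brain, and without it the rise to 28 months was 2.1.

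Apoe (chr7:19696109-19699188, minus strand) encodes apolipoprotein E, the main lipid carrier of the brain, and was by far the most abundant of the 9, at 669 CPM per kilobase of exon on average at 3 months. Its values were 1229, 1424 and 1812 CPM (lowest, median, highest) at 3 months, with medians of 1481, 1546 and 1572 CPM at 9, 15 and 24 months, and 1049, 1699 and 5739 CPM at 28 months. The 5739 CPM came from mouse 15, and 24-month mouse 13 had 3931 CPM; of the other brains the highest at 28 months was mouse 8 at 2210 CPM. Apoe rose by 0.41 ± 0.12 (log2, SE) at 28 months (edgeR adjusted p = 0.00625). Without the 2 brains the rise was 0.23 ± 0.07 (adjusted p = 0.0047), so the call held and the size did not. At 24 months it did not pass the test (0.27 ± 0.12, adjusted p = 0.146), passed it without 28-month mouse 15 (0.28, adjusted p = 0.0162), and was at 0.17 ± 0.07 (adjusted p = 0.0731) without the 2 brains.

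Lpl (chr8:68880491-68907448, plus strand) encodes lipoprotein lipase, which releases fatty acids from lipoprotein triglyceride. Its median was 58.3 CPM at 3 months (range 32.6 to 75.3), 65.1 at 9, 55.5 at 15, 49.0 at 24 and 49.3 at 28 months, where the range was 22.6 to 286 CPM. The 286 CPM belonged to mouse 15, and the next highest 28-month brain was within the range of 3 months. With all brains Lpl did not pass the test at 28 months (0.05 ± 0.15, log2, SE, edgeR adjusted p = 0.839). Without the 2 brains it was lower, by -0.24 ± 0.10 (adjusted p = 0.0458), so both its direction and its call rested on those libraries. Over all genes 28.3% were called in that comparison with all brains and 34.1% without the 2 brains. Voom with quality weights, which weights down libraries that fit poorly, also called Lpl lower over all brains (-0.25).

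Spp1 (chr5:104435118-104441050, plus strand) encodes osteopontin, a secreted glycoprotein that binds integrins and CD44. Its median was 6.24 CPM at 3 months (range 2.25 to 13.9), 4.21 at 9, 4.33 at 15, 5.44 at 24 (range 3.58 to 22.2) and 7.20 at 28 months (range 4.82 to 11.3). The groups overlapped from 3 to 28 months and no brain comparison of Spp1 passed edgeR's test, whereas voom with quality weights called it from 3 to 28 months. The change from 3 to 28 months was 0.30 ± 0.20 (log2, SE, edgeR adjusted p = 0.262). The high 24-month value was mouse 9, which also had the highest summed level of 8 border macrophage markers at that age, 42.8 CPM. Of the exon bases of Spp1, 309 (18.75%) are shared with the gene Gm42793 on the same strand, where reads cannot be assigned to either.

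At 9 and 15 months none of the 9 genes passed edgeR's test against 3 months, where 0.315% and 0.871% of all genes were called. At an unadjusted p under 0.05 there were 2 at 9 months, Spp1 lower and Trem2 higher, and 3 at 15 months, Trem2, Clec7a and Axl, all higher. The share of all genes under 0.05 before adjustment is not given here, so such counts have no background to be read against. From 15 to 24 months Clec7a and Cst7 were called, against 0.732% of all genes, and from 24 to 28 months Clec7a and Itgax, against 1.09%. Between 9 and 15 months neither a member nor any other gene was called by edgeR, and Clec7a alone of the 9 was under 0.05 before adjustment. From 3 to 28 months the groups overlapped for each of the 9 genes, where 0.246% of all genes had groups that did not.

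**Figure D2:**
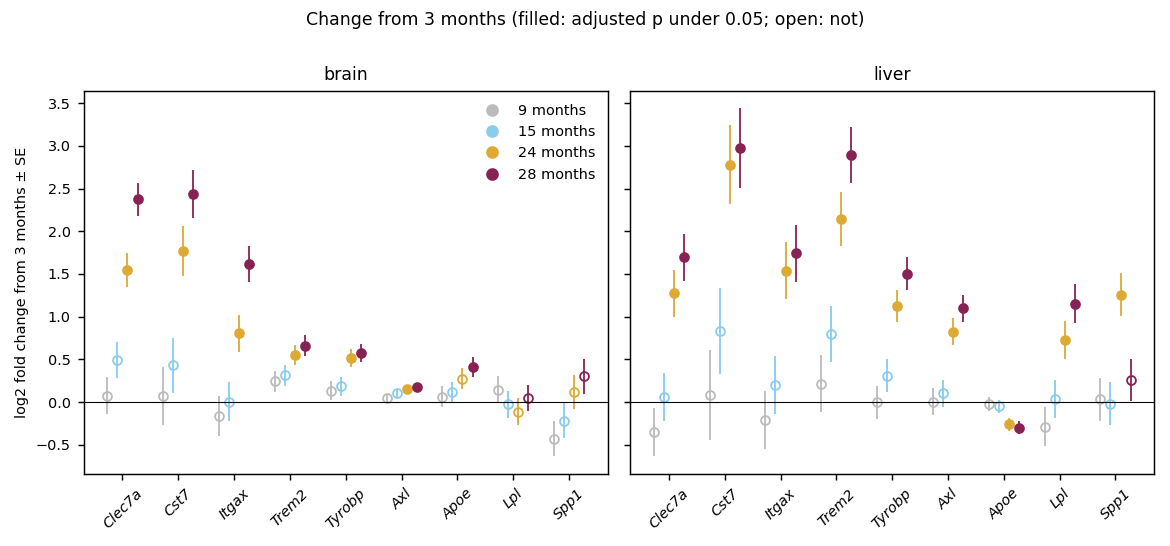
Log2 fold change from 3 months, with its SE, for each of the 9 genes at 9, 15, 24 and 28 months in brain (left) and liver (right); filled points had an edgeR adjusted p under 0.05. The largest brain changes are those of Clec7a and Cst7 at 28 months, 2.37 and 2.44, and in liver Apoe is the gene below 0 at 24 and 28 months.

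The 3 preps gave the same direction for 7 of the 9 genes when fitted alone, with fewer calls, from 4 to 7 libraries per age. From 3 to 28 months Clec7a was higher by 2.82, 2.55 and 1.82 (log2) in preps 1, 2 and 3, Cst7 by 2.01, 2.67 and 2.70 and Itgax by 1.94, 1.95 and 0.95. Trem2 gave 0.37, 0.77 and 0.87, Tyrobp 0.32, 0.69 and 0.75, and Axl 0.18, 0.24 and 0.11. Apoe ran from 0.11 in prep 1 to 0.77 in prep 3, the prep that held 28-month mouse 15. Lpl was at -0.46 in prep 1, -0.06 in prep 2 and 0.65 in prep 3, and Spp1 at 0.53, 0.38 and -0.07.

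One brain stood out for these genes without standing apart as a library. Mouse 8 of the 28-month group was the highest of its age for Clec7a, Cst7, Itgax and Axl and ranked after mouse 15 for Trem2, Tyrobp and Apoe, with 37569332 counts and a median correlation of 0.986 with the other brains. Its summed level of 12 homeostatic microglia genes was 807 CPM, where the 28-month median was 507 and the next highest library had 588, and its summed monocyte and neutrophil markers were 28.1 CPM, where the median was 8.2. Lpl, at 58.3 CPM, and Spp1, at 8.99 CPM, were within the range of the other 28-month brains in mouse 8. All 7 calls from 3 to 28 months remained without it. Mouse 15, by contrast, was the highest for Trem2, Tyrobp, Apoe and Lpl and the lowest for Clec7a, Itgax, Axl and Spp1.

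How the 9 genes varied among mice of one age was measured on log2 CPM after the means of age and prep were removed, over 36 pairs of genes with permutation tests of 100000 permutations within age and adjustment over the pairs. Over all 82 brains 17 pairs had an adjusted p under 0.05, and over the 80 brains without the 2 that stood apart 13 had. Trem2 and Tyrobp, receptor and adapter, were correlated most, with Pearson's r 0.90 (permutation p = 1e-05, the smallest these permutations can give; adjusted p = 7.2e-05) and Spearman's rho 0.79 (adjusted p = 9e-05). Over 82 brains r was 0.84 without the 2 brains farthest from the median of Trem2, and 0.82, 0.95 and 0.93 within preps. Without the 2 brains that stood apart it was 0.84, with 0.82, 0.91 and 0.68 within preps. Apoe went with both: over 80 brains r was 0.77 with Tyrobp and 0.60 with Trem2 (permutation adjusted p = 6e-05 each; rho 0.66 and 0.53).

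The pairs among the 3 genes that rose most come next. Clec7a and Itgax had r 0.43 over 82 brains (permutation p = 0.0007, adjusted p = 0.0028, rho 0.29, adjusted p = 0.0298), 0.28 without the 2 brains farthest from the median, and 0.21, 0.36 and 0.68 within preps. Over 80 brains the pair had r 0.31, 0.19 without the 2 brains farthest from the median, and 0.20, 0.36 and 0.44 within preps. Clec7a and Cst7 had r 0.02 over 82 brains (permutation p = 0.88, adjusted p = 0.893; rho 0.09, adjusted p = 0.582) and 0.23 over 80 (adjusted p = 0.0965), from -0.15 in prep 1 to 0.62 in prep 2. Cst7 and Itgax had r 0.26 over 82 brains (permutation p = 0.0393, adjusted p = 0.0673; rho 0.27, adjusted p = 0.0528), 0.15 without the 2 brains farthest from the median, and 0.20, 0.55 and -0.04 within preps. Over 80 brains the same pair had r 0.38 (permutation adjusted p = 0.00702; rho 0.33, adjusted p = 0.0144), with 0.23, 0.61 and 0.28 within preps. Cst7 with Trem2 had r 0.63 over 82 brains (permutation p = 1e-05, adjusted p = 7.2e-05, rho 0.53, adjusted p = 9e-05), 0.49 without the 2 brains farthest from the median, and 0.54, 0.80 and 0.47 within preps. Over 80 brains r was 0.60, with 0.53, 0.76 and 0.23 within preps.

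Axl and Lpl show how far the 2 brains weigh on such values. Axl had r -0.05 with Trem2 and 0.05 with Tyrobp over 82 brains, and 0.59 and 0.60 over 80 (permutation adjusted p = 6e-05 each), where the values within preps were 0.48 to 0.73 with Trem2 and 0.51 to 0.74 with Tyrobp. The correlation of Clec7a with Apoe, -0.52 over 82 brains (permutation adjusted p = 0.00195), was -0.21 over 80 (adjusted p = 0.166). Lpl and Trem2 had r 0.50 over 82 brains (permutation adjusted p = 0.0114; rho 0.14) and 0.06 over 80 (adjusted p = 0.702). Lpl ran against Spp1, at r -0.33 over 82 and -0.39 over 80 brains (permutation adjusted p = 0.0028 and 0.0022), but the values within preps over 82 brains were -0.31, -0.0030 and -0.46, so the relation was near 0 in prep 2. Lpl also ran against Axl, at -0.49 and -0.32, with -0.30, -0.42 and -0.69 within preps over 82 brains.

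**Figure D3:**
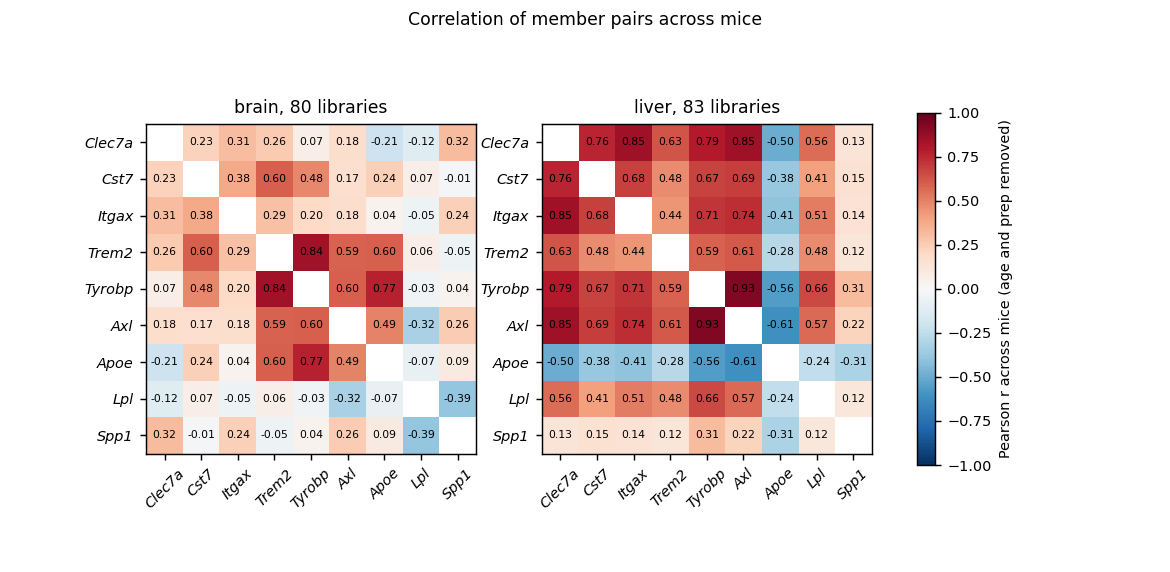
Pearson's r between each pair of the 9 genes across mice, on log2 CPM with the means of age and prep removed, for 80 brains (left, without the 2 that stood apart) and 83 livers (right); red is positive and blue negative. In brain the block of Trem2, Tyrobp, Apoe and Axl holds r of 0.49 to 0.84, and in liver Apoe is negative with each of the others.

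The brain genes most like each member, by the same r over 80 brains, are given as a description with no test. For Tyrobp they were C1qc (0.90), C1qa (0.87) and Laptm5 (0.87), and for Trem2 they were Tyrobp (0.84), Laptm5 (0.84) and C1qc (0.83), complement and lysosomal genes of microglia. Cst7 had Trem2 (0.60), Olfml3 (0.56) and Tmem119 (0.54). Clec7a had Ermn (0.71), a gene of myelinating oligodendrocytes, Kif5b (0.69) and Ccp110 (0.68), and Itgax had weaker values, Apobec1 (0.46), Rbl1 (0.46) and Hhex (0.44).
Spp1 had Fmod (0.91), Ptgds (0.90) and Slc6a13 (0.87), genes of the leptomeninges, and Lpl had Cpne4 (0.86), Nectin3 (0.85) and Ptgs2 (0.83), which neurons express. Axl had Lgi4 (0.73), Fads1 (0.72) and the astrocyte connexin Gja1 (0.71), and Apoe had Cox5b (0.92) and Rpl18 (0.91). With all 82 brains the closest genes of Clec7a were Plek, Qk and again Kif5b, and those of Lpl were Gabra2, Plppr4 and Ogfrl1.

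The 9 genes were also set against homeostatic microglia genes. Against the summed level of 12 such genes, in a comparison added after the data had been seen, r over 80 brains was 0.87 for Trem2, 0.79 for Tyrobp, 0.61 for Axl, 0.47 for Apoe and 0.45 for Cst7, each with a permutation adjusted p of 0.0025 or less over the 9 genes. It was 0.28 for Clec7a (permutation adjusted p = 0.0254; rho 0.15, and r 0.09 without the 2 brains farthest from the median), 0.21 for Itgax, 0.14 for Lpl and -0.04 for Spp1. Over all 82 brains r was 0.77 for Trem2, 0.77 for Tyrobp, 0.51 for Cst7, 0.50 for Apoe and 0.33 for Axl (permutation adjusted p = 0.0159 or less), and 0.09 for Clec7a (permutation adjusted p = 0.512), so the call of Clec7a and the size for Axl depended on the 2 brains. With the summed border macrophage markers Spp1 had r 0.68, given with no test. The part of cell numbers in any of these changes with age was not tested.

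Counts of neighbouring pathways in brain are read against the 28.3% of all genes called from 3 to 28 months. Of the other disease-associated microglia genes, 15 of 23 tested were higher and none lower, with a median log2 fold change of 0.58, 0.34 without the 2 brains. They included the lysozyme gene Lyz2 (1.42, from 7.33 to 19.6 CPM) and Cd52 (1.27) at the upper end and the cytokine gene Csf1 (0.26) and the protease gene Ctsb (0.14) at the lower. Among 9 genes of receptor signalling 8 were higher, with a median of 0.35, among them the adapters Card9 (0.53, 0.34 without the 2 brains) and Fcer1g (0.51), the kinase Lyn (0.24) and the phospholipase Plcg2 (0.24), while Syk was at -0.13 and was not called. Of 10 transcription factors 6 were higher, including Spi1, which encodes PU.1 (0.61), Runx1 (0.54) and Tfe3 (0.14).

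Of 17 tested partners of the 9 proteins, their ligands, receptors, cofactors and substrates, 6 were higher and 1 lower. Apoc1, an apolipoprotein gene next to Apoe, rose by 0.84, the integrin subunit gene Itgb2, the partner of CD11c, by 0.66, and Pros1, a ligand of AXL, by 0.20, and Lrp8, an APOE receptor gene, fell by 0.18 on the log2 scale. Homeostatic microglia genes did not fall together: 7 of 12 were higher and 2 lower, with a median of 0.17. Without the 2 brains 9 were higher and 2 lower, with a median of 0.20. Siglech rose by 0.55, with 134 CPM in 28-month mouse 15 and at most 28.9 in the others of its age, and by 0.20 without the 2 brains (edgeR adjusted p = 0.00838). Cx3cr1, the fractalkine receptor gene, rose by 0.34, whereas Fcrls fell by 1.08, from 5.41 to 2.57 CPM, and Olfml3 by 0.29. Their summed level was 417 to 509 CPM at 3 months and 433 to 807 CPM at 28 months.

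**Figure D4:**
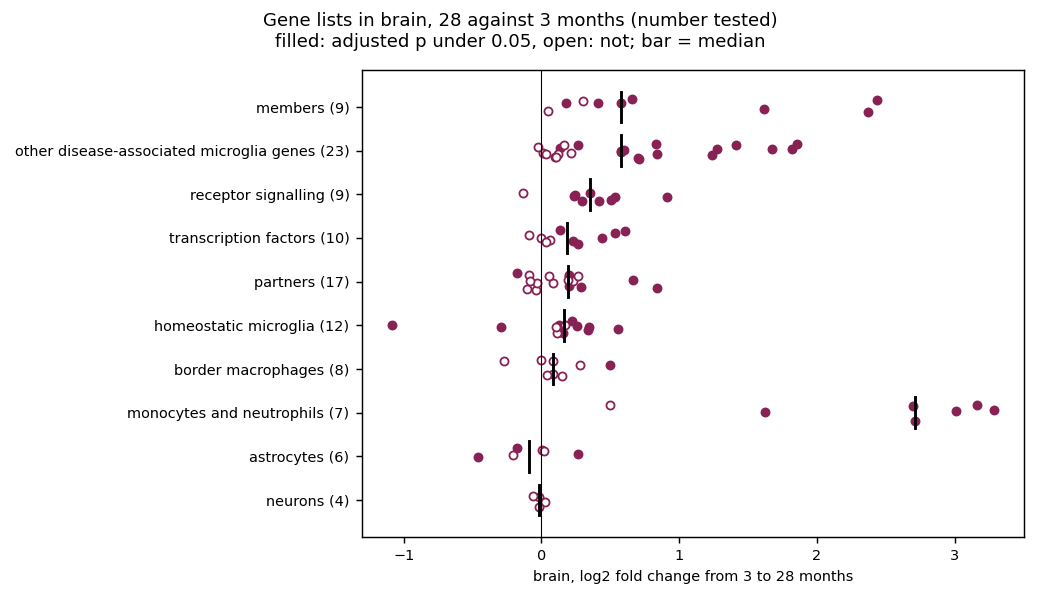
Log2 fold change in brain from 3 to 28 months for the 9 genes ("members") and for genes of 9 lists, with the number tested in parentheses; filled points had an edgeR adjusted p under 0.05 and the bar is the list's median. The medians are 0.58 for the 9 genes, 0.58 for the other disease-associated microglia genes, 0.17 for homeostatic microglia and 2.71 for monocytes and neutrophils. Without the 2 brains that stood apart these medians are 0.49, 0.34, 0.20 and 2.70.

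Markers of other cells that use these genes are given beside the rise. Of 7 tested monocyte and neutrophil markers 6 rose, with a median of 2.71, among them S100a8 (3.16, from 0.39 to 3.58 CPM) and S100a9 (3.01), and the list's summed level was 0.55 to 5.24 CPM at 3 and 2.83 to 41.6 CPM at 28 months. Of 8 border macrophage markers 1, Cd163 (0.50), rose, and their sums overlapped, at 24.7 to 41.8 and 25.3 to 39.4 CPM. Of 6 astrocyte markers Gja1 and Aqp4 fell by 0.18 and 0.46, and Aldh1l1 was called higher with all brains (0.27, edgeR adjusted p = 0.0383) but not without the 2 brains (0.08, adjusted p = 0.189); 28-month mouse 15 had 168 CPM and the next brain of its age 52.5. None of 4 neuron or 6 choroid plexus markers was called. The T cell markers Cd3e and Cd3g had 3 counts or fewer in 54 and 63 of 82 brains, and the dendritic cell marker Xcr1 in 81. The only T and NK cell marker tested, Cd4, was at -0.24 and was not called (edgeR adjusted p = 0.391). Of 4 tested dendritic cell markers 1, Batf3, was higher at 28 months (1.11, edgeR adjusted p = 0.000102), and of 2 tested B cell markers 1, Cd79b (0.66, adjusted p = 0.0331), both named after their values were seen. Of 3 tested hepatocyte markers 2 were higher, also named after their values were seen: the cytochrome gene Cyp2e1 by 1.67, from 0.24 to 0.85 CPM (edgeR adjusted p = 3.92e-06), and the apolipoprotein gene Apoa1 by 1.6, from 0.29 to 1.05 CPM (adjusted p = 3.31e-05). Without the 2 brains these were 1.55 and 1.11. Adgre1, the macrophage gene of the Kupffer cell list that microglia also express, rose by 0.41 (log2, edgeR adjusted p = 4.82e-05). The Kupffer cell markers Clec4f, Marco and Cd5l were at that floor in 82, 81 and 80 of 82 brains. The part of blood, border or other cells in the rise of Clec7a, Cst7 and Itgax was not tested.

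In liver the same genes were read in other cells, and the test on 15579 genes called 61.9% of all genes from 3 to 28 months, 31.9% higher and 30.0% lower. Of the 9, 7 rose and 1, Apoe, fell at 28 months, and 8 rose and Apoe fell at 24 months, where 49.0% of all genes were called, 25.0% higher and 24.0% lower. The median of the 9 log2 fold changes was 1.5 at 28 months, where that of all genes was 0.01. At 9 and 15 months none passed edgeR's test, where 4.69% and 7.32% of all genes did. At an unadjusted p under 0.05 there were 0 and 1, Trem2 at 15 months, and the share of all genes at that level is not given here. From 15 to 24 months all 9 were called, 8 higher and Apoe lower, against 36% of all genes, and from 9 to 15 months none was by edgeR, against 0.0514%, also at an unadjusted p under 0.05 (0 genes). From 15 to 24 months Lpl lost its call without 24-month mouse 10 (0.50, adjusted p = 0.0603), and voom called 7 of the 9.

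Trem2 was faint in young liver, at 0.19, 0.48 and 2.04 CPM (lowest, median, highest) at 3 months, and reached 1.37, 1.9 and 6.29 CPM at 24 and 1.69, 2.82 and 30.9 CPM at 28 months. The 30.9 CPM belonged to 28-month mouse 9, which also had the highest summed Kupffer cell markers of its age, 4020 CPM. Its rise was 2.89 ± 0.33 (log2, SE, edgeR adjusted p = 6.93e-12), 7.42-fold, with 15 of 18 livers above every 3-month liver, and 2.42 without mouse 9. Tyrobp, with medians of 14.3 and 38.6 CPM, rose by 1.5 ± 0.19 and Axl, with 30.4 and 63.6 CPM, by 1.10 ± 0.16.

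Clec7a, at a median of 5.91 CPM at 3 months, was at 21.1 CPM at 28 months, a rise of 1.69 ± 0.28 (log2, SE). Itgax went from a median of 1.32 to 4.88 CPM, a rise of 1.74 ± 0.34, and Cst7 from 0.10 to 0.58 CPM, a rise of 2.97 ± 0.46. A single young liver, 3-month mouse 12, was the highest of its age for 8 of the 9 genes and the lowest for Apoe, at 55.8 CPM of Clec7a, 13.5 of Itgax and 0.78 of Cst7, and also for the sums of Kupffer cell (960 CPM) and monocyte and neutrophil markers (64.3 CPM). Without it the rises were 2.26 for Clec7a, 2.35 for Itgax and 3.53 for Cst7, and the 8 calls were kept.

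Lpl, at a median of 43.7 CPM at 3 months, was at 60.0 CPM at 24 and 91.5 CPM at 28 months, and rose by 1.15 ± 0.23 (log2, SE). Apoe, which hepatocytes make in large amounts, fell from a median of 19001 to 15568 CPM, by 0.30 ± 0.08 on the log2 scale (edgeR adjusted p = 0.000457), with 3 of 18 livers at 28 months below every 3-month liver. Spp1 showed a different course. Its median stayed between 39.5 and 41.4 CPM at every age, but at 24 months 4 of 17 livers were at 152 to 492 CPM and the other 13 at 31.8 to 46.5. With these it rose by 1.26 ± 0.25 at 24 months and fell by 0.99 ± 0.24 from 24 to 28 months (adjusted p = 0.00209), where 15.3% of all genes were called. Without the highest of them, 24-month mouse 5, the rise was 0.78 and the fall 0.52 (adjusted p = 0.0586), so that call rested on this liver. Summed bile duct markers were 20.6 to 37.3 CPM in these 4 livers, where the median of the age was 18.5.

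**Figure D5:**
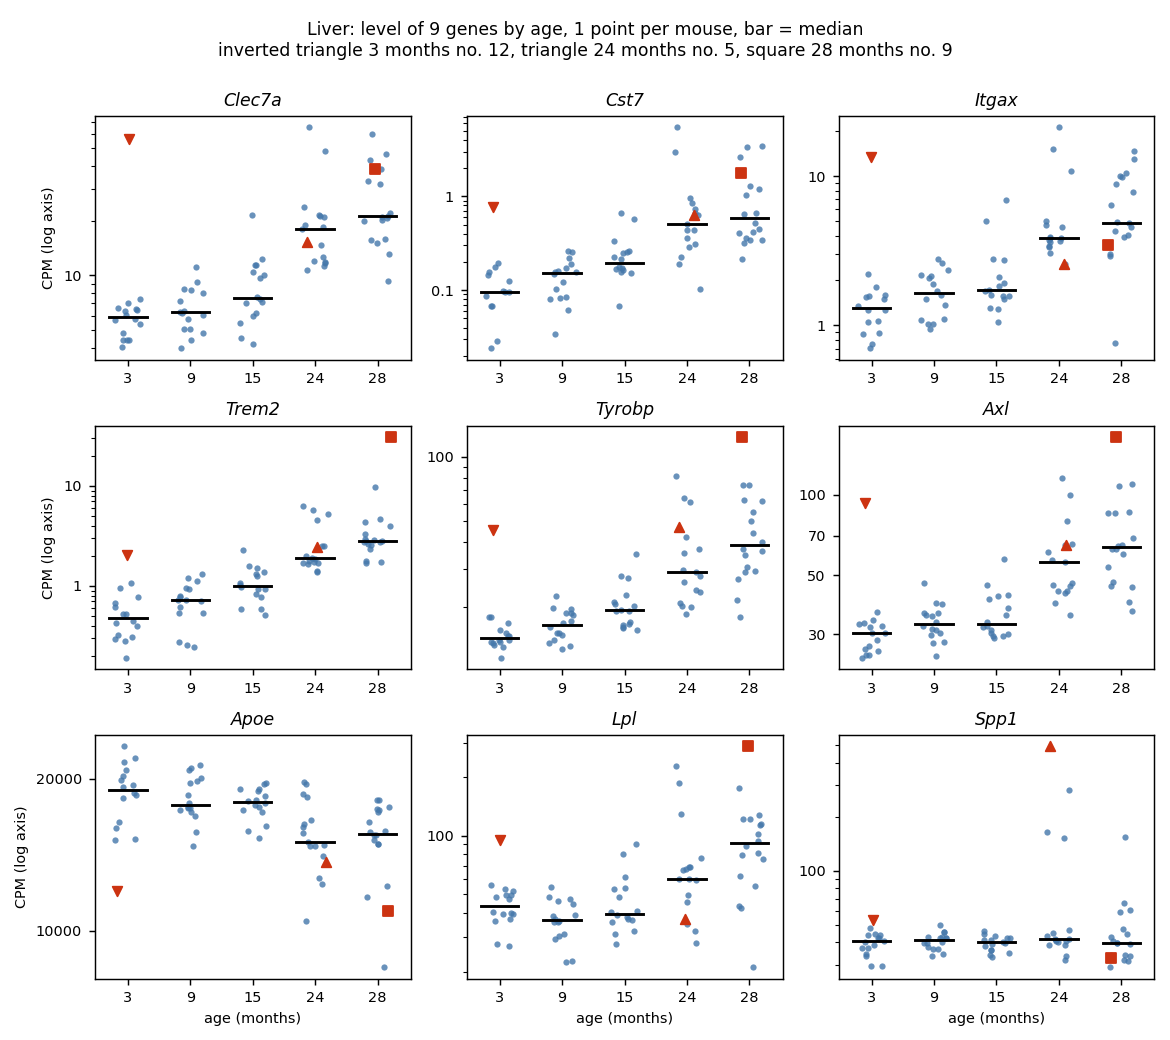
Level of the 9 genes in liver, in CPM on a logarithmic axis, against age in months; each point is 1 mouse and the bar is the median of the age. Marked are 3-month mouse 12 (inverted triangle), 24-month mouse 5 (triangle) and 28-month mouse 9 (square); 3 Cst7 values of 0 cannot be drawn. Apoe is the gene whose median is lower at 28 than at 3 months apart from the nearly level Spp1.

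Marker lists moved in liver as well: all 6 Kupffer cell markers (median 1.55), all 8 monocyte and neutrophil markers (3.32), all 4 B cell markers (2.93) and 4 of 6 T and NK cell markers were higher at 28 months, and none of 4 hepatocyte markers was called. Summed Kupffer cell markers were 259 to 960 CPM at 3 and 429 to 4020 CPM at 28 months. Across livers the highest correlations between members were r 0.93 between Tyrobp and Axl (permutation p = 1e-05, adjusted p = 1.89e-05; rho 0.88; 0.91 without the 2 livers farthest from the median; 0.93, 0.94 and 0.92 within preps), 0.85 between Clec7a and Itgax and 0.85 between Clec7a and Axl. The receptor and adapter pair, Trem2 and Tyrobp, had r 0.59 in liver. Apoe was negative with every other member, from -0.24 to -0.61. The part of cell numbers in the liver changes was not tested.

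The difference between the tissues was tested directly, as brain minus liver change from 3 to 28 months, in a fit over 14035 genes of which 49.2% were called. The change was smaller in brain for Trem2 (-2.25 ± 0.32, log2, SE, edgeR adjusted p = 2.24e-09), Lpl (-1.15 ± 0.27, adjusted p = 0.000199), Tyrobp (-0.96 ± 0.21, adjusted p = 7.9e-05) and Axl (-0.96 ± 0.16, adjusted p = 3.19e-07). Of these Lpl, called higher in liver, was not called higher in brain. Apoe differed the other way, by 0.66 ± 0.14 (adjusted p = 2.74e-05), higher with age in brain and lower in liver. Without the brain of 28-month mouse 15 the same 5 genes were called, but Apoe was at 0.49 ± 0.11 and Lpl at -1.42 ± 0.25. Clec7a (0.65 ± 0.35, adjusted p = 0.115), Cst7 (-0.58 ± 0.58, adjusted p = 0.416), Itgax (-0.16 ± 0.43, adjusted p = 0.777) and Spp1 (0.01 ± 0.31, adjusted p = 0.991) were not shown to differ. Within prep 2 alone none of the 5 differences passed. Lpl also did not pass in prep 3 (-0.52, edgeR adjusted p = 0.50), nor Apoe in prep 1 (0.37, adjusted p = 0.155). Itgax, not called over all preps, was called in prep 3 (-1.99, edgeR adjusted p = 0.0306).

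Brain and liver levels of the same gene were compared mouse by mouse. Over 82 mice with both tissues, with age and prep removed, none of 9 correlations had a permutation adjusted p under 0.05. The r ran from -0.31 for Lpl (permutation p = 0.027, adjusted p = 0.242; rho -0.18; -0.14 without the 2 mice farthest from the median) to 0.21 for Itgax (permutation p = 0.079; rho 0.17), and by Spearman's rho Trem2 had 0.26 (permutation p = 0.0198, adjusted p = 0.178). Without the 2 brains that stood apart, r was -0.066 for Lpl (permutation p = 0.559) and rho 0.28 for Trem2 (permutation p = 0.0118, adjusted p = 0.107), and again none of 9 passed.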

How the data were processed

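The authors deposited raw read counts per gene, 1 table for brain and 1 for liver. Per the submitters' processing notes, reads were handled with cutadapt 2.8, HISAT2 2.1.0, SAMtools 1.9 and featureCounts of Subread 2.0.1 on GRCm38.p6 (mm10). The annotation and the strand setting of the counting are not given in the sources used here. Symbols were found for 55144 of 55471 identifiers, and exon lengths and gene classes came from GENCODE M21.

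Counts were filtered with filterByExpr, scaled by TMM and fitted per tissue over all 5 ages with edgeR 4.0.16 (quasi-likelihood, two-sided) in R 4.3.3, with age and prep as terms; adjusted p-values are Benjamini-Hochberg over all genes tested, called under 0.05. CPM are counts scaled by the TMM-adjusted library size. P-values measure the spread between mice, with 1 library per mouse and tissue. Alternatives were DESeq2 1.42.0, limma 3.58.1 (voom with quality weights), RLE size factors, no filter, no prep term, each prep alone, only the 2 ages compared, a replicate block and each library left out in turn. In simulated counts the 28 against 3 month fit recovered 80.6% of 1.5-fold and 94.0% of 2-fold changes among 18639 brain genes, and 76.0% and 92.9% among 15534 liver genes. Correlations used scipy 1.17.1 in Python 3.11.15.

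The 9 genes and all lists were chosen with earlier results of these data known. From each list, the text names the 2 highest and 2 lowest of the called changes, provided the gene averaged 1 CPM or more. Some genes that this rule or the likeness ranking names are not reported here. Brain and liver of a mouse are paired by the mouse label (median correlation of their deviations 0.05, over 0.1 in 19 of 82), which the tissue comparison used as a block in an alternative fit.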

Additional observations from a re-analysis of the deposited data

Results flagged for a closer look

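From 3 to 28 months, 5 of the 9 genes differed between brain and liver by a test of the difference itself (edgeR, tissue by age). Brain minus liver, on the log2 scale, was -2.25 for Trem2, -1.15 for Lpl, -0.96 for Tyrobp, -0.96 for Axl and 0.66 for Apoe. Without the brain of 28-month mouse 15 Lpl was at -1.42 and Apoe at 0.49. In the fit with all brains 49.2% of all genes were called.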

How the results depend on the processing

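Counts of the 9 genes called were recomputed under each alternative. The share of all genes called under these alternatives is not given here. A gain or loss therefore cannot be read as particular to the 9 genes. In brain, voom called 1 gene at 9 months, 3 at 15 months and 4 from 15 to 24 months, where edgeR called 0, 0 and 2, and 7 at 24 and all 9 at 28 months, where edgeR called 6 and 7. Fits of only the 2 ages called 1 gene at 15 months, 6 at 28 months and 0 from 24 to 28 months, where the fit of all ages called 0, 7 and 2. With no filter on low counts 5 genes were called at 24 months, where the main fit called 6. Preps 1, 2 and 3 alone called 3, 0 and 2 genes at 24 months (6 with all), 4, 3 and 4 at 28 months (7 with all), and 0, 0 and 0 in each of the later steps. Leaving out each library in turn gave 2 to 4 genes from 15 to 24 months and 1 to 3 from 24 to 28 months.

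In liver, voom called 1 gene at 15 months, and so did the highest of the fits that left out a library, where the fit of all livers called 0. Prep 1 called 4 and prep 2 called 3 genes at 24 months (9 with all, 7 by voom), prep 2 called 1 at 28 months (8 with all), and preps 1 and 3 called 0 and 1 from 15 to 24 months (9 with all, 7 by voom). From 24 to 28 months, where 1 gene was called, DESeq2 called 2, voom 5, the 2 ages alone 0, no prep term 2, and preps 1, 2 and 3 gave 3, 0 and 0; leaving out each library gave 0 to 4. For the difference between tissues prep 2 called 0 genes and prep 1 called 4, without Apoe, instead of 5. Prep 3 also called 5, but with Itgax in place of Lpl. Without 28-month mouse 15, 11 of 36 brain pairs were called instead of 17.

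Some signs turned. For Lpl in brain from 3 to 28 months (0.05), voom gave -0.25, prep 1 -0.46, prep 2 -0.063, the replicate block -0.020, and fits without mouse 15, or without it and 24-month mouse 13, -0.24 each. For Spp1 prep 3 gave -0.073 in brain and prep 1 -0.068 in liver. For brain minus liver, prep 3 gave -0.57 for Clec7a (0.65 with all), prep 2 gave 1.00 for Cst7 (-0.58 with all) and 1.29 for Itgax (-0.16 with all), and Spp1 was -0.019 without a filter, -0.28 in prep 2 and -0.37 in prep 3. The correlations of Lpl with Tyrobp and Apoe, 0.36 and 0.48 over 82 brains and both called, became -0.031 and -0.073 without the 2 brains, and 0.058 and 0.041 without mouse 15 alone. The cause of these shifts was not tested.

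With the replicate number as a block, 6 brain genes were called at 24 months and 7 at 28 months, and 9 and 8 in liver; the numbers do not pair mice of different ages (median correlation 0.01 in brain and 0.01 in liver), and with the mouse as block 5 tissue differences were called. For all 9 genes from 3 to 28 months and the genes called in the other comparisons, fold changes kept direction and side of the threshold in 404 refits, lost the threshold in 86, gained it in 1 and turned sign in 8; genes uncalled in the other comparisons are not in this tally. Cst7, Clec7a and Itgax rested on few counts at 3 months (medians of 6, 17 and 17 per brain), which limits their precision there. Power within 1 prep was not tested.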
